A study of Mus musculus with 6 samples.

Results

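Transcripts of 9 complement genes were measured by RNA-seq in subcutaneous white adipose tissue (scWAT) of mice labelled as having or lacking *Yap* and *Taz* in adipocytes. The 9 genes were taken by symbol from the count files, out of 55401 genes: *C1qa*, *C1qb* and *C1qc*, *C2* and *C4b*, *C3* and *Cfb*, *C7*, and the receptor gene *C3ar1*. Each of them had counts, and 9 of the 9 passed the filter on low counts. Total RNA came from 3 YT-FF and 3 YT-AKO male mice, 8 weeks old and kept at room temperature. The sample labels call the control mice WT and the study calls them YT-FF, a name that stands for the floxed *Yap* and *Taz* alleles where the study injects such mice with Cre virus. Whether the control mice of these libraries were littermates is not given in the sources used here. YT-AKO mice carried the Yapfl/fl and Tazfl/fl alleles together with AdipoqCre, a Cre driven by the promoter of the adiponectin gene, which is active in mature adipocytes. The tissue was sequenced whole, so immune, vascular and stromal cells contributed to every value, and for each gene fewer cells of a type and less RNA per cell cannot be told apart.

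Complement is a cascade of plasma and tissue proteins that tags particles and cells for removal. C1q recognizes bound antibody, dying cells and other surfaces, and its associated proteases cleave C4 and C2 into a convertase that cuts C3, while the alternative pathway builds its own C3 convertase from C3 and factor B with the help of factor D. Later components form a membrane pore, and small cleavage fragments of C3 and C5 act through receptors on myeloid and other cells. In fat, C1q chains are made largely by resident macrophages, C3 and factor B are made by adipocytes and stromal cells, and factor D, also called adipsin, is a serine protease secreted by adipocytes.

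The libraries held 17740987 to 21838493 counted fragments. The library YT-AKO 2 stood apart: its counts differed from those of the other YT-AKO libraries by a chi-square of 145 to 161 per gene, against 11.9 to 32.6 for the other pairs within a group, so results are also given without it. *Yap1* fell in the libraries labelled YT-AKO, from a mean of 64.2 to 32.6 CPM (normalized counts-per-million; edgeR adjusted p = 0.0179). *Wwtr1*, the gene of TAZ, rose from 84.0 to 156 CPM (edgeR adjusted p = 0.0220), against its label. With scaling by library totals alone its log2 fold change was 0.59 (edgeR adjusted p = 0.0796). These counts run over whole genes and not over the floxed exons. By immunoblot the study found clearly less YAP and TAZ protein in YT-AKO scWAT. The adipocyte markers *Adipoq*, *Plin1* and *Fabp4* and the other 7 of their list were detected in the tissue, and their summed level was 13640 to 20092 CPM in YT-FF and 23194 to 36437 CPM in YT-AKO. Of 5 hepatocyte markers 2, *Ttr* and *Fgb*, had no counts in any library. The 5 summed to 12.9 to 39.7 CPM in YT-FF and 14.3 to 17.5 CPM in YT-AKO, mostly from *Alb*.

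The 3 genes of C1q were higher in YT-AKO scWAT, and the other 6 complement components did not pass the test. *C1qa* was 3.31-fold, *C1qb* 2.60-fold and *C1qc* 2.45-fold higher, and the group ranges did not overlap for any of the 3. *C3* and *C4b*, the most abundant components by transcript level in YT-FF mice, had log2 fold changes of 0.01 and 0.37. A gene was called at an adjusted p under 0.05 by the quasi-likelihood test of edgeR, where p-values were adjusted after Benjamini and Hochberg over 16807 tested genes. With this rule 3 of the 9 components were called higher and 0 lower, against 12.6% of all tested genes called higher and 9.01% called lower. Among the 6 without a call the unadjusted p was lowest for *Cfb*, at 0.0516, and next for *C4b*, at 0.0977. The median log2 fold change of the 9 genes was 0.37, and that of all tested genes was -0.02. Ranges of TMM-normalized CPM did not overlap between the groups for 4 components with higher values in YT-AKO and for 1 with lower values, and among all tested genes this held for 25.7% and 25.8%. With 3 against 3 libraries the smallest p of the exact permutation test is 0.1, so no single gene can reach 0.05 that way.

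**Figure D1:**
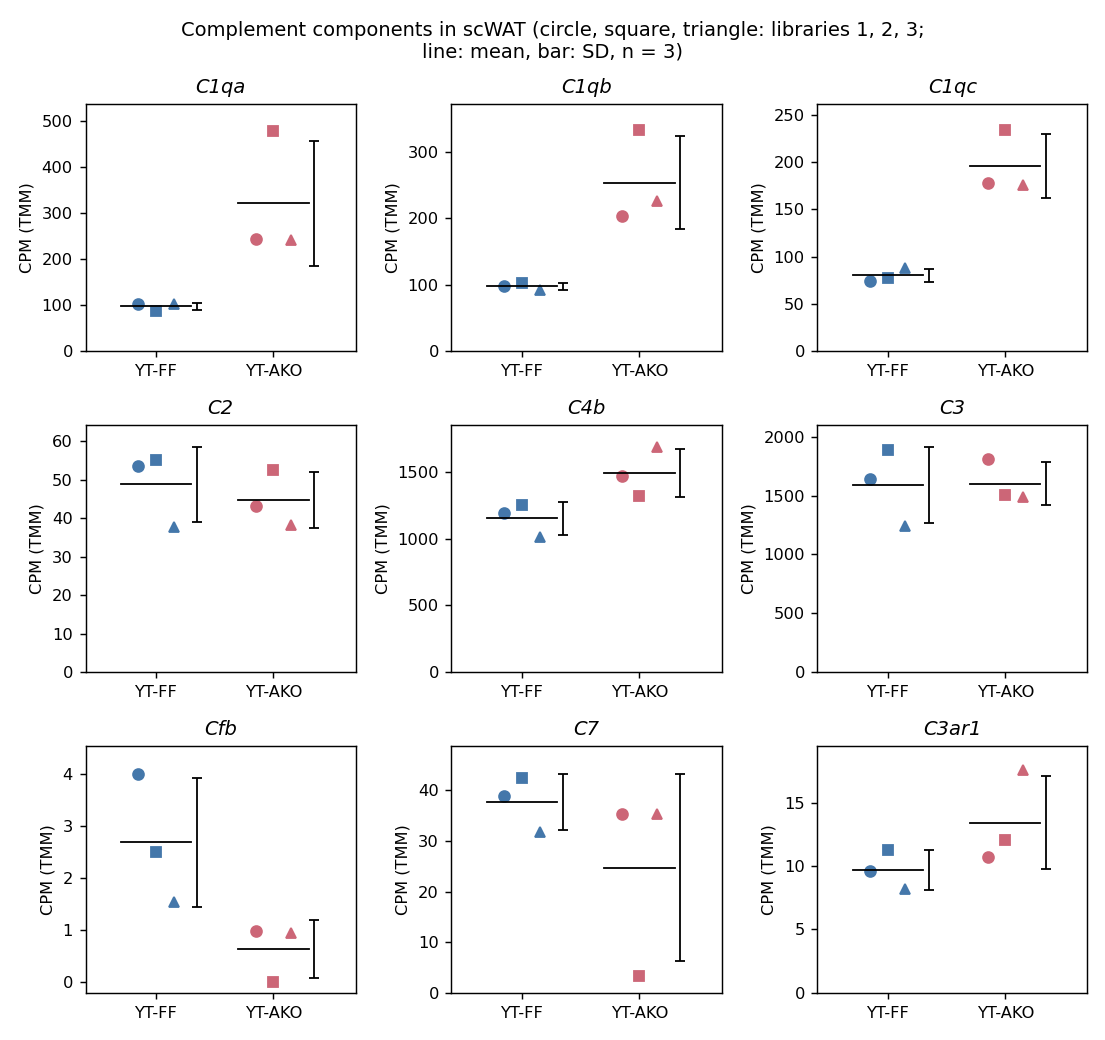
TMM-normalized CPM of each complement component in the 3 YT-FF (blue) and 3 YT-AKO (red) libraries, with circles, squares and triangles for libraries 1, 2 and 3, a line at the mean and a bar for the SD. The *C1qa*, *C1qb*, *C1qc* and *C4b* points of YT-AKO lie above all YT-FF points, those of *Cfb* lie below, and the groups overlap for *C2*, *C3*, *C7* and *C3ar1*.

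C1q is built from A, B and C chains, each encoded by its own gene, and the protein needs all of them. The genes lie side by side on the minus strand of chromosome 4 in mm10, *C1qb* at chr4:136880129-136886187, *C1qc* at chr4:136889804-136893065 and *C1qa* at chr4:136895917-136898803. Each has 3 exons, and no exon base of them is shared with another annotated gene. *C1qa* had 101, 87.6 and 102 CPM in the YT-FF libraries and 243, 479 and 241 CPM in the YT-AKO libraries. The library YT-AKO 2 was the highest by far, and the other YT-AKO libraries still lay above every YT-FF library. The fitted log2 fold change of *C1qa* was 1.73 (SE 0.292, adjusted p = 0.0177).

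*C1qb* had 97.6, 102 and 92.7 CPM in YT-FF and 203, 333 and 225 CPM in YT-AKO. Its log2 fold change was 1.38 (SE 0.217, edgeR adjusted p = 0.0177), with YT-AKO 2 again highest and no overlap. *C1qc* had 74, 78 and 88 CPM in YT-FF and 177, 234 and 176 CPM in YT-AKO. Its log2 fold change was 1.29 (SE 0.179, edgeR adjusted p = 0.0166), so the order of the 3 changes was *C1qa*, *C1qb*, *C1qc*. Each of the 3 exact permutation tests of CPM gave p = 0.1, the smallest possible value. Leaving out YT-AKO 2 gave log2 fold changes of 1.32, 1.13 and 1.14 for *C1qa*, *C1qb* and *C1qc*, and all were called. The calls were lost when YT-FF 1 or YT-FF 2 was left out, at adjusted p = 0.110 and 0.111, where the fit called 0 genes higher and 0 or 2 lower among all tested genes, although the unadjusted p was under 0.05 for 4665 and 4507 genes. The log2 fold changes in those fits were between 1.24 and 1.76.

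The fold changes of all genes moved with the length of the gene, with a Spearman correlation of -0.38 across genes, and the C1q genes are short, at 1040, 1088 and 1931 exon bases for *C1qa*, *C1qb* and *C1qc*. With a correction for gene length the log2 fold changes were 1.27, 0.94 and 0.96 in the same order, and the adjusted p-values were 0.0204, 0.0212 and 0.0182. The call counts of the 9 components stayed at 3 higher and 0 lower, against 10.1% and 4.54% of all tested genes. Without YT-AKO 2 there were 4 components called higher, the C1q genes and *C4b*, and 1 lower, *Cfb*, against 16.9% and 14.0% of all tested genes. Scaling by the library totals alone shifted the median log2 fold change of all genes from -0.02 to -0.34, and the C1q genes then had values of 1.36, 1.02 and 0.95, each called.

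**Figure D2:**
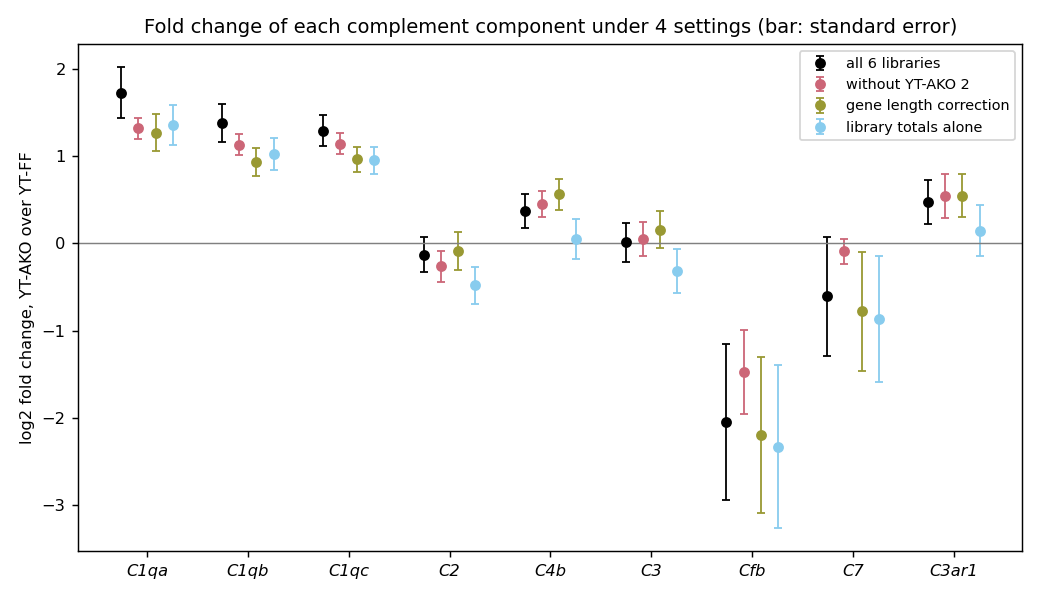
Log2 fold change of each component, YT-AKO over YT-FF, with the standard error as a bar, from all 6 libraries, without YT-AKO 2, with the gene length correction and with library totals alone. The C1q genes lie between 0.94 and 1.73 in these 4 settings, *C4b* runs from 0.05 to 0.56, *C3* changes sign, and the bars of *Cfb* and *C7* shorten when YT-AKO 2 is left out.

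The chains were also compared with each other per transcript, as TPM (transcripts-per-million, which divides counts by exon length). *C1qa* stood at 2.54, 2.09 and 2.15 times the TPM of *C1qc* in the YT-FF libraries and at 2.55, 3.79 and 2.55 times in the YT-AKO libraries. These ratios did not overlap, though the lowest YT-AKO value and the highest YT-FF value were almost equal (exact permutation p = 0.1). The ratio of *C1qb* to *C1qc* was 1.87 to 2.34 in YT-FF and 2.03 to 2.52 in YT-AKO, with overlap (exact permutation p = 0.7). YT-AKO 2 had the highest value of both ratios.

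Macrophage markers are given beside the C1q genes because these cells make C1q. Of 18 macrophage markers 4 were called higher (*Fcgr1*, *Tyrobp*, *Fcer1g* and *Trem2*), 1 lower (*Cx3cr1*), and 13 were not called. Among all tested genes 12.6% were called higher and 9.01% lower. The median log2 fold change of the 18 was 0.28, and 0.06 with the length correction. Their summed level was 3663 to 4036 CPM in YT-FF and 3919 to 6569 CPM in YT-AKO, so the ranges overlapped and YT-AKO 2 was highest there too. *Csf1r*, the receptor on which macrophages depend for survival, had 150, 172 and 142 CPM in YT-FF and 172, 150 and 195 CPM in YT-AKO (log2 fold change 0.16, SE 0.169, edgeR adjusted p = 0.504). *Adgre1*, which encodes the F4/80 antigen, had a log2 fold change of 0.36 (edgeR adjusted p = 0.294), and *Lyz2*, the macrophage lysozyme, 0.53 (edgeR adjusted p = 0.106). *Tyrobp*, the adaptor of several myeloid receptors, rose by 1.26 on the log2 scale (SE 0.281, edgeR adjusted p = 0.0258). The summed CPM of the C1q genes was 1.82, 1.56 and 1.99 times that of *Csf1r* in YT-FF and 3.61, 6.96 and 3.29 times in YT-AKO, without overlap (exact permutation p = 0.1). No ratio here was corrected for gene length, and *Csf1r* has 5774 exon bases, *Tyrobp* 667 and *Fcer1g* 874. Against the summed level of the 18 macrophage markers the ratio was 0.0737, 0.0664 and 0.0771 in YT-FF and 0.159, 0.159 and 0.164 in YT-AKO, again without overlap. That sum rests mostly on *Cd74*, with means of 2047 CPM in YT-FF and 2655 CPM in YT-AKO. *Lyz2* came next, with 746 and 1074 CPM, so the sum says little about the other markers. Against the 4 markers called higher the C1q ratio differed by marker. The ratio to *Fcgr1* was 42.4 to 44.9 in YT-FF and 56.2 to 74.9 in YT-AKO, without overlap. The ratio to *Tyrobp* was 9.04 to 10.4 in YT-FF and 10.2 to 13.0 in YT-AKO, so the groups overlapped (exact permutation p = 0.2). The ratios to *Fcer1g* and *Trem2* overlapped too (exact permutation p = 0.2 and 0.9). The part of macrophage number in the C1q values was not tested.

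**Figure D3:**
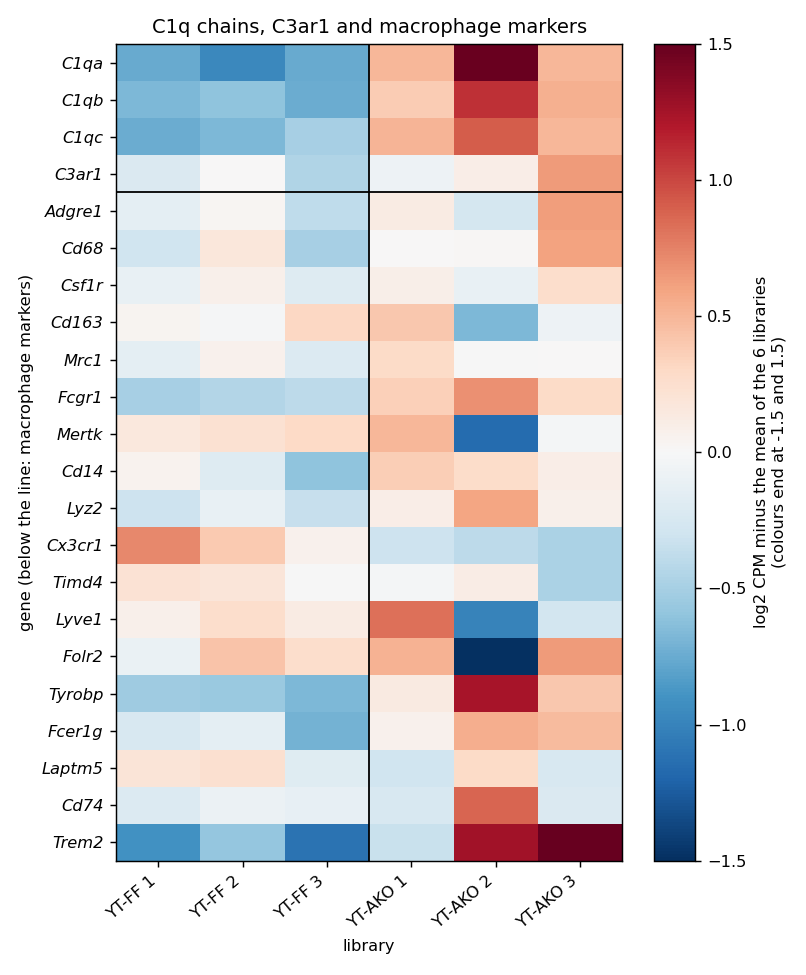
Log2 CPM of the C1q genes, *C3ar1* and 18 macrophage markers in each library, centred on the mean of the 6 libraries (red above, blue below, colours ending at -1.5 and 1.5). The C1q rows change from blue to red at the border between the groups, as do *Fcgr1*, *Tyrobp*, *Fcer1g* and *Lyz2*, with *Fcer1g* and *Lyz2* pale in some libraries. *Cx3cr1* changes from red to blue there. *Csf1r* and *Mrc1* stay pale, and *Mertk*, *Folr2* and *Lyve1* are lowest in YT-AKO 2.

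The genes with the most similar profiles to the mean of the C1q genes were ranked by the root mean square difference of centred log2 CPM over the 6 libraries, among 10331 genes with a mean of at least 10 CPM. The nearest were *Fbxo31* (0.059), *Fahd1* (0.062), *Ppp1r14b* (0.063), *Tmem147* (0.068) and *Naxe* (0.071). Among macrophage markers *Tyrobp* came nearest at 0.18, at rank 175, followed by *Fcer1g* at rank 1960 and *Lyz2* at rank 2265, while *Csf1r* was at rank 4641. The 5 nearest genes are on none of the marker lists. Each was called higher, which follows from choosing genes by likeness to a profile that was itself called higher.

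Sequences upstream of the transcription start, from RefSeq (GRCm38.p6), were matched by symbol for 5 of the 9 genes, *C1qb*, *C1qc*, *C3*, *C7* and *C3ar1*, and *C1qa*, *C2*, *C4b* and *Cfb* are named only. The 250 bases before the start are shown for *C1qb* and *C1qc*, which rose together, and for *C3*, which did not pass the test. Capitals mark matches, on either strand, to the letters of 4 motifs: GAGGAA for PU.1, a factor of myeloid cells, TTNNGNAA for C/EBP, GGAATG for the TEAD partners of YAP and TAZ, and TTCNNNGAA for STAT factors. The PU.1 and TEAD letters can share the bases GGAA, and the C/EBP and STAT letters can also overlap. All lie on the minus strand and read 5′ to 3′.
C1qb, chr4:136886201-136886450: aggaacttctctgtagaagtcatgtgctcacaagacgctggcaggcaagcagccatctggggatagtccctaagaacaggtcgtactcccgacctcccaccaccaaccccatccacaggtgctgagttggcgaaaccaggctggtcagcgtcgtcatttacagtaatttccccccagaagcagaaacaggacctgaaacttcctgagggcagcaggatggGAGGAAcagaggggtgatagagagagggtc
C1qc, chr4:136892915-136893164: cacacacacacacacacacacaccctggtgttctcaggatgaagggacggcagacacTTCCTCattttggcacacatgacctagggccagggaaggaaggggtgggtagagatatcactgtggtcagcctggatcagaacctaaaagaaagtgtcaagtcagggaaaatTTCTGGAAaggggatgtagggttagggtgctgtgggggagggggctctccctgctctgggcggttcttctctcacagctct
C3, chr17:57228137-57228386: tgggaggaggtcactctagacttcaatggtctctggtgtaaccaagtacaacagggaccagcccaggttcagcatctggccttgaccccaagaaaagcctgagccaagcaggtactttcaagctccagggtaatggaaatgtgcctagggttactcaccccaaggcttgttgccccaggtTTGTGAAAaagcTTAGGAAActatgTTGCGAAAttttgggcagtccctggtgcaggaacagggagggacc
The *C1qb* window held 1 PU.1 match and the *C1qc* window 1 PU.1 and 1 C/EBP match. Over chr4:136892915-136893065 the *C1qc* window lies inside the gene as annotated for the counts. That stretch is most of the window and holds the C/EBP match. The *C3* window held 3 C/EBP matches close to the start. None of the 5 windows had the TEAD letters. Of 32851 RefSeq promoter windows of the same length 23.3% held the PU.1 letters, 36.8% those of C/EBP, 12.6% those of TEAD and 7.02% those of STAT, so matches of this kind are common and describe only the letters present.

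C4 and C2 are cleaved by the C1 proteases and together form the C3 convertase of the classical and lectin pathways. *C4b* encodes mouse C4 at chr17:34728380-34743882. It had 1196, 1252 and 1014 CPM in YT-FF and 1474, 1322 and 1687 CPM in YT-AKO. The YT-AKO values lay above all YT-FF values, by a log2 fold change of 0.37 (SE 0.198, edgeR adjusted p = 0.193; exact permutation p = 0.1). Without YT-AKO 2 it was 0.45 and called, at adjusted p = 0.0480. The ordering depended on the scale: with library totals alone the log2 fold change was 0.05, and in TPM the groups overlapped and the mean was lower in YT-AKO, 646 ± 211 against 774 ± 117 (SD, n = 3). Of the 50-base words in *C4b* transcripts 34.6% also occur in *C4a*, the neighbouring sex-limited paralogue, whose count was 0.133 to 0.221 per 100 counts of *C4b*. The counts of both genes summed, a step added after seeing the data, gave the same log2 fold change of 0.37. Of 12 fibroblast and progenitor markers 5 were called higher and 1 lower, against 12.6% and 9.01% of all tested genes. The summed level of the 12 was 10141 to 11897 CPM in YT-FF and 18396 to 24990 CPM in YT-AKO. The part of these markers in the *C4b* values was not tested.

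*C2*, at chr17:34862604-34898265, encodes the serine protease of that convertase. It had 53.7, 55.2 and 37.6 CPM in YT-FF and 43.2, 52.6 and 38.4 CPM in YT-AKO, and every YT-AKO value lay inside the YT-FF range. Its log2 fold change was -0.13 (SE 0.204, edgeR adjusted p = 0.664; exact permutation p = 0.6). Library totals alone gave -0.48 (adjusted p = 0.125), and in TPM the YT-AKO values of *C2* all lay below those of YT-FF. The exons of *C2* overlap those of *Gm20547* and *Zbtb12* over 46.9% of their bases, and fragments there were not assigned to any gene, so its count covers only part of the transcript.

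*C3* is the central component on which all pathways converge. It lies at chr17:57203970-57228136 with 42 exons. The YT-FF libraries had 1642, 1886 and 1243 CPM and the YT-AKO libraries 1813, 1503 and 1491 CPM. All YT-AKO values lay within the YT-FF range, and the fitted log2 fold change was 0.01 (SE 0.226, edgeR adjusted p = 0.975; exact permutation p = 1.0). The sign turned under several settings, to -0.32 with library totals alone (adjusted p = 0.350). The genes nearest to the *C3* profile were *Entpd1* (0.072), *Trmt1l* (0.080), *Id2* (0.088), *Clcn5* (0.094) and *Ly6c2* (0.10). None of the 5 was called, which again follows from how they were chosen.

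*Cfb* encodes factor B, the protease of the alternative C3 convertase. Its counts were 94, 57 and 30 in the YT-FF libraries and 17, 0 and 16 in the YT-AKO libraries, which are 4.0, 2.5 and 1.5 CPM against 0.99, 0 and 0.94 CPM. The count of 0 in YT-AKO 2 allows a level of up to 0.177 CPM, by 3 counts and for counting error only. All YT-AKO values lay below the YT-FF values, but the log2 fold change of -2.05 did not pass the test (SE 0.893, edgeR adjusted p = 0.125; exact permutation p = 0.1). It was called lower in DESeq2, at -2.07 and adjusted p = 0.0404, and in edgeR without YT-AKO 2, at -1.48 and adjusted p = 0.0485. *Cfb* lies directly beside *C2*, at chr17:34856374-34862518, and 79.5% of its exon bases are shared with the overlapping gene *Gm20547*, which had no counts in any library. Fragments on shared bases were assigned to no gene. As a rate per 100 *C2* counts it was 7.45, 4.53 and 4.10 in YT-FF and 2.28, 0 and 2.46 in YT-AKO (exact permutation p = 0.1). When the counts of *C2*, *Cfb* and *Gm20547* were summed, a step added after seeing the data, the log2 fold change was -0.18 (adjusted p = 0.522), and *C2* made up nearly all of the sum.

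*C7* joins the membrane attack complex after C5b and C6, and lies at chr15:4988762-5063740. It had 38.9, 42.4 and 31.7 CPM in YT-FF and 35.4, 3.36 and 35.4 CPM in YT-AKO. In CPM the low mean of YT-AKO came from YT-AKO 2, with 57 counts against 610 and 600. Per length, *C7* had 55.9, 62.7 and 42.8 TPM in YT-FF and 36.9, 2.2 and 36.0 TPM in YT-AKO, so on that scale every YT-AKO library lay below YT-FF. The log2 fold change was -0.61 with a wide error (SE 0.677, edgeR adjusted p = 0.523; exact permutation p = 0.4) and -0.09 (adjusted p = 0.651) without that library.

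*C3ar1*, the receptor of the C3 fragment C3a, lies at chr6:122847138-122856161. It had 9.62, 11.3 and 8.18 CPM in YT-FF and 10.7, 12.0 and 17.6 CPM in YT-AKO, with overlap. Its log2 fold change was 0.47 (SE 0.252, edgeR adjusted p = 0.196; exact permutation p = 0.2) and 0.15 with library totals alone. On the heat map of the macrophage markers its highest library was YT-AKO 3, as for *Adgre1* and *Cd68*, and not YT-AKO 2, as for the C1q genes.

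Levels were compared between genes per length, in TPM. In YT-FF scWAT the order of the means was *C3* (1184 ± 291, SD, n = 3), *C4b* (774 ± 117), *C1qa* (354 ± 21.0), *C1qb* (342 ± 32.5), *C1qc* (157 ± 8.67), *C7* (53.8 ± 10.1), *C2* (48.3 ± 11.5), *C3ar1* (8.61 ± 1.75) and *Cfb* (3.64 ± 1.74). Neighbours in that order had separate ranges except *C1qa* with *C1qb* and *C7* with *C2*. TPM divided by all exon bases, although fragments on bases shared with other genes were not counted. Such bases make up 46.9% of *C2* and 79.5% of *Cfb*. The TPM of these genes are therefore understated in both groups, and their places in the order are uncertain. In YT-AKO the upper part of the order closed up, with *C3* at 762 ± 237, *C1qa* at 698 ± 96.0, *C4b* at 646 ± 211 and *C1qb* at 540 ± 21.9, and each of these overlapped with its neighbour. *C1qc* (239 ± 23.0) stood alone below them, *C2* (27.3 ± 3.67), *C7* (25.1 ± 19.8) and *C3ar1* (7.65 ± 3.17) overlapped in sequence, and *Cfb* (0.63 ± 0.55) was lowest. TPM gives each gene a share of a fixed total, of which *Cfd* alone took 22849 TPM in YT-FF and 68751 TPM in YT-AKO as group means. The log2 ratio of the mean levels of *C1qa* was 0.98 in TPM against 1.73 in CPM, that of *C3* was -0.64 against 0.01 and that of *C3ar1* was -0.17 against 0.47. In TPM the C1q genes were still higher in every YT-AKO library than in any YT-FF library, and *C2*, *Cfb* and *C7* were lower in every one. The share of all tested genes without overlap was computed in CPM only, so how common such a separation is in TPM is not known.

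**Figure D4:**
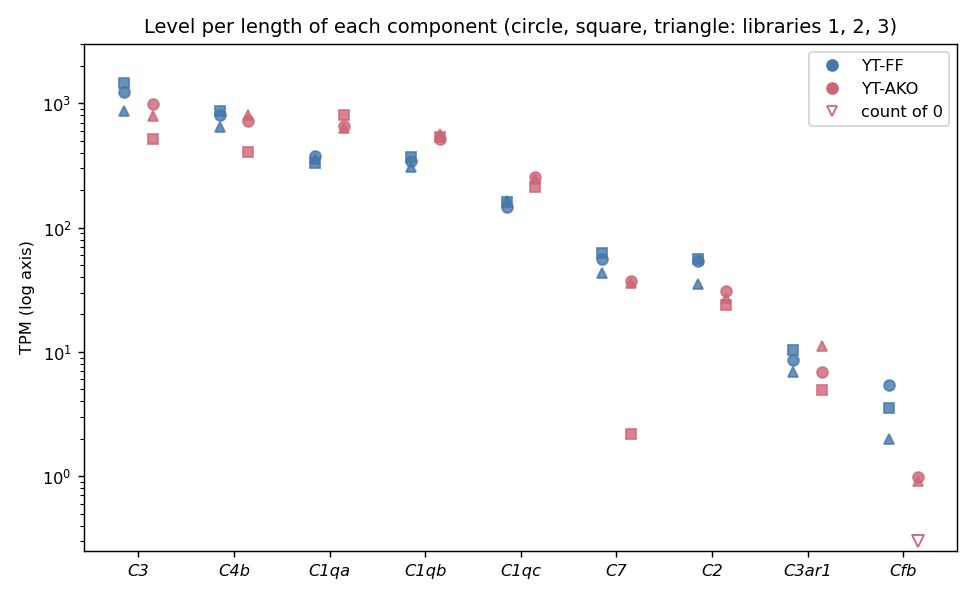
TPM of each component on a log axis, in order of the YT-FF mean, with circles, squares and triangles for libraries 1, 2 and 3 and an open triangle for a count of 0. Transcript levels run from 1184 TPM for *C3* to 3.64 TPM for *Cfb* in YT-FF means, and *C7* in YT-AKO 2 lies far below the rest of its gene. The *C2* and *Cfb* values are understated, since fragments on exon bases shared with other genes were not counted. *Cfb* had a count of 0 in YT-AKO 2, and its 0.98 and 0.91 TPM in YT-AKO 1 and 3 lie below the lowest YT-FF value, 1.97 TPM.

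A list of 50 other complement genes, ordered by role, places the 9 in their pathway. Of these, 7 had no counts in any library, among them the mannose-binding lectin genes *Mbl1* and *Mbl2*, and 37 were tested. There were 8 called higher, 4 called lower and 25 not called, against 12.6% and 9.01% of all tested genes. The median log2 fold change of the 37 was 0.26, and 0.16 with the length correction, under which 3 were called higher and 2 lower. All 12 calls were lost when YT-FF 1 or YT-FF 2 was left out, and the counts over the 6 fits with a library left out ran from 0 to 10 higher and from 0 to 3 lower. Without YT-FF 3 there were 1 higher and 1 lower, and library totals alone gave 2 higher and 5 lower.

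Among the listed collectin and ficolin genes, 2 of 3 tested were called higher, against 12.6% of all tested genes. *Colec12*, a scavenger receptor collectin, rose from 35.3 ± 2.31 to 60.2 ± 2.05 CPM (SD, n = 3; log2 fold change 0.77, edgeR adjusted p = 0.0185). The value was 1.16 with the length correction (adjusted p = 0.0169) and 0.44 with library totals alone, where the call was lost (adjusted p = 0.0958). *Fcna*, the gene of ficolin A, rose from 18.5 ± 4.21 to 31.2 ± 4.86 CPM (log2 fold change 0.75, edgeR adjusted p = 0.0456). The *Fcna* call was lost with the length correction (adjusted p = 0.285) and with library totals alone (adjusted p = 0.210). The proteases that act with C1q and the lectins showed no call in 7 tested genes, with a median log2 fold change of -0.12. *C1s1*, which cleaves C4 and C2, had 212, 218 and 218 CPM in YT-FF and 202, 167 and 227 CPM in YT-AKO (log2 fold change -0.12, SE 0.168, edgeR adjusted p = 0.614). *C1ra*, which activates C1s, had a log2 fold change of 0.04 (SE 0.171, edgeR adjusted p = 0.867), and 50.8% of its 50-base words occur in *C1rb* or a pseudogene. The proteases of the C1 complex did not pass the test and the chains of C1q did, and the difference between these genes was not itself tested.

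Both genes listed for the alternative pathway were called higher, against 12.6% of all tested genes. *Cfd*, the gene of adipsin, had 5362, 5893 and 5333 CPM in YT-FF and 18677, 48750 and 19268 CPM in YT-AKO. All YT-AKO libraries were far above YT-FF, and YT-AKO 2 was the highest. Its log2 fold change was 2.39 (SE 0.430, edgeR adjusted p = 0.0185), and 1.78 without YT-AKO 2. *Cfd* made up 0.615%, 0.681% and 0.568% of counted fragments in YT-FF and 1.78%, 3.79% and 1.84% in YT-AKO. *Cfp*, which encodes properdin, the stabilizer of the alternative convertase, rose from 73.7 ± 1.53 to 145 ± 43.5 CPM (log2 fold change 0.97, edgeR adjusted p = 0.0264), and its adjusted p was 0.0542 with the length correction. *Cfd* rose, whereas *Cfb*, whose product factor D cleaves, had lower values in every YT-AKO library and *C3* had overlapping ones. Of 10 adipocyte markers 3 were called higher, *Fabp4*, *Lipe* and *Pnpla2*, and 7 were not called, with a median log2 fold change of 0.42 over the 10. Of 7 brown and beige adipocyte markers 6 were called higher. Among all tested genes 12.6% were called higher and 9.01% lower. The part of these adipocyte markers in the *Cfd* result was not tested.

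In the terminal pathway 0 of 3 tested genes were called, against 12.6% called higher and 9.01% lower of all tested genes. *C6*, the partner of *C7*, went from 9.82 ± 2.23 to 17.6 ± 3.92 CPM without overlap (log2 fold change 0.84, SE 0.253, edgeR adjusted p = 0.0503; 1.01 without YT-AKO 2, adjusted p = 0.0095). *C8g* had a log2 fold change of 0.56 (edgeR adjusted p = 0.141).

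The soluble regulators had 1 call in each direction among 6 tested genes, against 12.6% higher and 9.01% lower of all tested genes. *Vtn*, the gene of vitronectin, which blocks pore insertion, rose by 0.63 on the log2 scale (edgeR adjusted p = 0.0349). The *Vtn* call was lost under the length correction (adjusted p = 0.144) and with library totals alone (adjusted p = 0.209). *Cfi*, the protease that inactivates C3b and C4b, fell, but its counts were low, 72, 19 and 16 in YT-FF and 6, 4 and 6 in YT-AKO (log2 fold change -2.31, SE 0.685, edgeR adjusted p = 0.0480), and it was called in 0 of the 6 fits with a library left out. *Serping1*, the inhibitor of C1r and C1s, went from 253 ± 22.8 to 355 ± 36.1 CPM without overlap (log2 fold change 0.49, edgeR adjusted p = 0.0704). *Clu*, the gene of clusterin, had a log2 fold change of 0.27 (edgeR adjusted p = 0.407).

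Membrane regulators protect host cells. Of 7 tested genes 1 was called higher and 2 lower, against 12.6% and 9.01% of all tested genes. *Cd59b*, an inhibitor of the membrane pore, rose by 1.11 on the log2 scale (edgeR adjusted p = 0.0356), from 3.92 to 8.47 CPM. *Cd46*, a cofactor of factor I, fell from 6.85 ± 0.61 to 3.21 ± 0.29 CPM (log2 fold change -1.09, edgeR adjusted p = 0.0243). *Csmd1*, a large membrane protein with complement control domains, fell from 6.98 ± 2.1 to 2.81 ± 1.15 CPM (log2 fold change -1.31, edgeR adjusted p = 0.0426). All of these calls were lost with the length correction. Both abundant regulators of this role missed the call. *Cd59a*, another inhibitor of the pore, overlapped between the groups (log2 fold change 0.25, edgeR adjusted p = 0.501). *Cd55*, which speeds the decay of the convertases, had 119, 120 and 106 CPM in YT-FF and 89.1, 104 and 106 CPM in YT-AKO. Every YT-AKO library lay below YT-FF, the closest pair by less than 1 CPM, and the same held in TPM. The log2 fold change of *Cd55* was -0.21 (edgeR adjusted p = 0.329), and -0.54 (adjusted p = 0.0584) with library totals alone.

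Of 9 tested receptor genes 2 were called higher and 1 lower, against 12.6% and 9.01% of all tested genes. *C5ar1*, the receptor of C5a on myeloid cells, rose from 10.5 ± 2.38 to 22.8 ± 8.25 CPM (log2 fold change 1.11, edgeR adjusted p = 0.0413) and was lowest in YT-AKO 2 of the YT-AKO libraries. It was called in 1 of the 6 fits with a library left out, the fit without YT-AKO 2. The call was also lost with the length correction (log2 fold change 0.92, adjusted p = 0.0841) and with library totals alone (0.82, adjusted p = 0.126). *C1qbp*, a mitochondrial protein that also binds C1q, rose from 62.3 ± 0.57 to 107 ± 6.66 CPM (log2 fold change 0.78, edgeR adjusted p = 0.0185). The *C1qbp* call held with the length correction (0.63, adjusted p = 0.0260) and was lost with library totals alone (0.45, adjusted p = 0.0695). In TPM its groups overlapped. *Cr2*, the receptor of C3 fragments on B cells, had 125, 125 and 111 CPM in YT-FF and 59.0, 57.4 and 51.4 CPM in YT-AKO, without overlap. Its log2 fold change was -1.11 (SE 0.147, edgeR adjusted p = 0.0165), and -0.74 with the length correction (adjusted p = 0.0290). The B cell markers moved the same way: 5 of 8, *Cr2* itself among them, were called lower, against 9.01% of all tested genes. The summed level of the 8 was 1181 to 1406 CPM in YT-FF and 691 to 1026 CPM in YT-AKO. The part of these markers in the *Cr2* result was not tested. *Itgb2*, the beta chain of complement receptors 3 and 4, had 122, 120 and 84.8 CPM in YT-FF and 84.1, 61.9 and 74.7 CPM in YT-AKO. The groups did not overlap, and YT-AKO was the lower. The log2 fold change was -0.57 (SE 0.201, edgeR adjusted p = 0.0751), and with library totals alone *Itgb2* was called lower (-0.89, adjusted p = 0.0433).

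**Figure D5:**
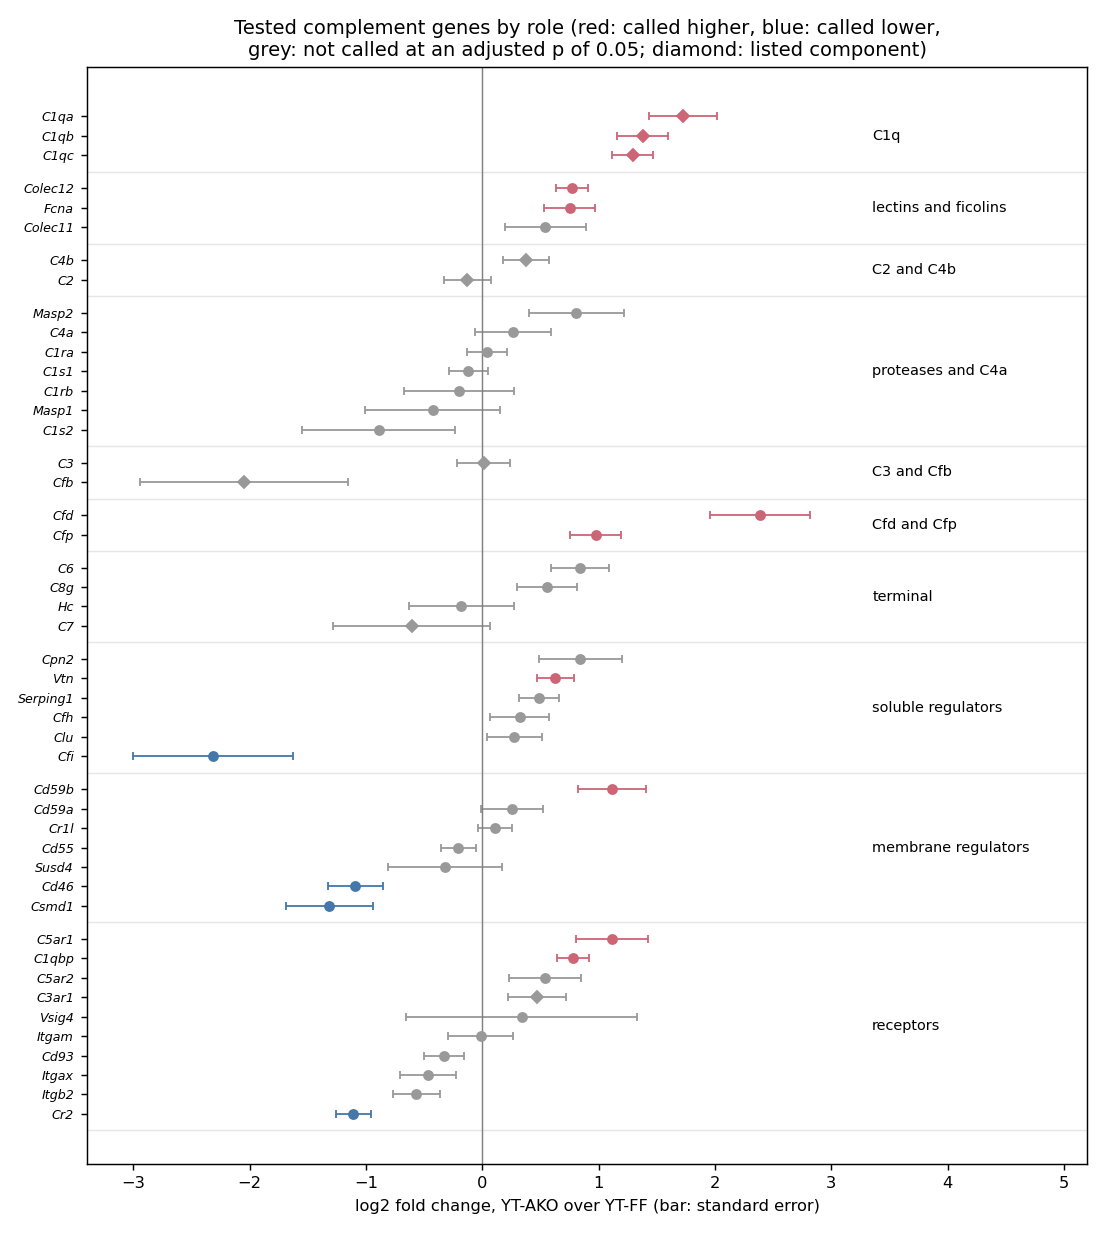
Log2 fold change, YT-AKO over YT-FF, of the tested complement genes by role, with the standard error as a bar; red and blue mark genes called higher and lower, grey genes that were not called, and diamonds the 9 components. C1q, *Colec12* with *Fcna* and *Cfd* with *Cfp* lie to the right, *Cfi*, *Cd46*, *Csmd1* and *Cr2* to the left, and the proteases are all grey.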

How the data were processed

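RNA-seq of scWAT from 3 YT-FF (WT in the labels) and 3 YT-AKO mice was used. Per the file headers, the deposited files hold unnormalized fragment counts for each gene, made by the authors from paired-end reads with featureCounts 2.0.1 on the exons of GENCODE vM25. Reads were mapped to mm10 with HISAT2. Counting ignored strand and left out fragments that overlapped several genes. Symbols were matched for 55141 of 55401 gene identifiers. Library totals ran from 17740987 to 21838493, and 3 counts, the floor for a count of 0, are 0.128 to 0.177 CPM, for counting error only. The study's methods give 3 mice a group.

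The main test was edgeR 4.0.16 in R 4.3.3 with TMM factors, low counts filtered by filterByExpr (at least 10 counts, total 15) and Benjamini-Hochberg adjustment over 16807 genes, calling genes at an adjusted p under 0.05. The biological coefficient of variation was 0.288. CPM used the TMM factors and TPM the summed exon lengths. Single values were compared with two-sided exact permutation tests (20 arrangements). Alternatives were DESeq2 1.42.0, limma-voom (limma 3.58.1), scaling by upper quartiles or by library totals alone, dropping the filter, requiring 10 counts in every library, robust edgeR fits, a replicate block, a gene length correction (spline with 6 degrees of freedom), the block with that correction, TPM, and leaving out each library. Summed counts of overlapping or near-identical genes were added after the data were seen. Scripts were tested on simulated data.

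The complement genes and the lists were chosen with earlier results of these data known. Call counts of any role or marker list stand against 12.6% of all tested genes called higher and 9.01% lower. The text names the 9 components, the other complement genes that were called or had the 2 highest mean TPM of their role, *Yap1*, *Wwtr1*, the 5 genes with the profile most like C1q and *C3* (pseudocount 0.1 CPM), and marker genes as examples.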

Additional observations from a re-analysis of the deposited data

How the results depend on the processing

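The 3 C1q genes were called higher with DESeq2, limma-voom, scaling by upper quartiles or library totals, either filter, robust estimation and the length correction, and not with the replicate block. The replicate numbers share only a number: correlations of same-numbered deviations were 0.13, -0.12 and -0.09, and not every library correlated best with its own number. With the replicate block 0 components, 0 other complement genes, and 24 higher and 9 lower of all genes were called (5806 at an unadjusted p under 0.05), and with the block and length correction 0, 0, 59 and 22 (5091). Over the fits leaving out a library, the components called higher ran from 0 to 4 and lower from 0 to 1, other complement genes from 0 to 10 and from 0 to 3, and all genes from 0 to 2925 and from 0 to 2426. DESeq2 called 1 component lower, *Cfb*. With library totals alone 2 other complement genes were higher, and of all genes 1137 were higher and 2820 lower, so 28.7% of calls were higher against 58.3%. With the length correction 3 other complement genes were higher and 2 lower, and 763 of all genes were lower (68.9% of calls higher). *C3* reversed to -0.035 with upper quartiles, -0.32 with library totals, -0.021 with 10 counts in every library and -0.08 without YT-AKO 1, and ran from -0.14, without YT-FF 3, to 0.14 over the fits with a library left out. *C1ra* reversed to -0.00075 with upper quartiles, -0.27 with library totals, -0.075 with the length correction, -0.079 with the block and length correction and -0.03 without YT-AKO 1, and ran from -0.033, without YT-FF 3, to 0.15. *Clu* reversed to -0.087 with library totals, and *Cd59a* to -0.076 with library totals, -0.088 with the length correction and -0.049 with the block and length correction. Of the other single-gene values 387 kept direction and side of the threshold, 104 lost a call, 9 gained a call and 7 moved in TPM. The values that moved include *C3*, *C4b* and *C3ar1*, whose mean was higher in YT-AKO in CPM and lower in TPM. The cause was not tested. At *Cfb* depth, with 0 to 94 counts a library, the fold change is poorly set.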

Other observations

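Markers of the other cell types in scWAT were measured beside the complement genes. Their call counts stand beside 12.6% of all tested genes called higher and 9.01% called lower. Of 8 endothelial markers 0 were called higher and 1, *Kdr*, lower. Of 8 T cell markers 0 were called higher and 1, *Cd4*, lower, and of 5 tested neutrophil markers 0 were called, all with edgeR. The skeletal muscle markers had summed levels of 116 to 431 CPM in YT-FF and 209 to 3132 CPM in YT-AKO, highest in YT-AKO 1, and 1 of 6, *Acta1*, was called higher. Markers of mesothelium summed to at most 5.18 CPM and those of epithelium to at most 5.09 CPM in any library. The hepatocyte markers summed to 12.9 to 39.7 CPM in YT-FF and 14.3 to 17.5 CPM in YT-AKO, with most of it from *Alb*. Of 3 tested follicular dendritic cell markers, *Clu* among them, 0 were called.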
